A study of Mus musculus with 6 samples.

Results

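The genes described here carry the symbols of mitochondrial ribosomal proteins. They were taken as every gene symbol that begins with Mrpl (large subunit) or Mrps (small subunit) followed by a number, provided that 3 or more of the 6 libraries reached an FPKM of 1. FPKM relates the sequenced fragments of a gene to its length and to the size of the library, so it can be compared between genes. Of the 24083 symbols in the expression table, 77 matched by name and all 77 passed the filter, 48 with an Mrpl symbol and 29 with an Mrps symbol. The filter therefore removed no member, and none lay just outside it. The member nearest to it was Mrpl41, with 4.04, 3.29 and 3.67 FPKM in the 3 wild-type libraries and 4.004, 4.531 and 5.1 FPKM in the 3 mutant libraries.

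The libraries held polyadenylated RNA from mouse embryonic stem cells (mESC), which were grown on gelatin in DMEM with fetal bovine serum and LIF. In 3 of the libraries the cells carried wild-type Nanog (WT), and in the other 3 they carried Nanog R153A, a mutant of this homeodomain transcription factor of pluripotent cells. No other treatment is named for either group. The labels do not tell how the R153A change was introduced, how many clones carried it or whether the 3 libraries were separate cultures, so the p-values measure the spread between these libraries, which may be technical.

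Mitochondrial ribosomes translate the few mRNAs that the mitochondrial genome encodes, all of them for subunits of the respiratory chain and the ATP synthase. Their ribosomal RNAs come from the mitochondrial genome, but every one of their proteins is encoded in the nucleus, made in the cytosol and imported. The small subunit binds the mRNA and decodes it, and the large subunit joins the amino acids and passes the nascent protein through an exit tunnel to the inner membrane. Some of the proteins have a homologue in bacterial ribosomes and others are found in mitochondria only. Cells that lack a single one of these proteins often fail to assemble the subunit it belongs to.

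The labelled cell type was checked against its markers. All 10 pluripotency markers examined reached 1 FPKM in every library, and their summed FPKM was 4372 to 5134 in WT and 2404 to 2509 in R153A, where 7 of the 10 were lower and 1 (Lin28a) was higher. Of 12 markers of fibroblasts and feeder cells, 5 stayed under 1 FPKM in every library, among them Lum, Dcn and Postn, and the 12 summed to 109.5 to 118.8 FPKM in WT and 84.9 to 90.5 FPKM in R153A. Most of that sum was Fn1 and Vim, the only 2 of the 7 tested markers that were lower. Of the other 5, the collagen genes Col1a1 (1.17 to 2.82 FPKM, limma adjusted p = 2.53e-05) and Col1a2 (0.707 to 1.70 FPKM, 4.78e-05) and Acta2 (0.794 to 1.36 FPKM, 0.0046) were higher in R153A, and 2 did not pass. Col3a1, Dcn and Pdgfrb, under 1 FPKM and not tested, had higher values in every R153A library than in any WT library. The part of these marker differences in the results below was not tested. Nanog mRNA itself was at 252.7 ± 10.02 FPKM in WT and 123.2 ± 5.16 FPKM in R153A (SD, n = 3), and an mRNA level cannot check a change of 1 amino acid. The FPKM values of a library summed to between 360152 and 382086, the number of genes at 1 FPKM or more was 11147 to 11257 in WT and 11642 to 11759 in R153A, and the read depth is unknown.

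Mitochondrial ribosomal protein mRNAs did not move together in R153A cells. In the limma fit over all 11817 genes tested, with p-values adjusted over all of them by Benjamini-Hochberg and called at 0.05, 21 of the 77 members (27.3%) were higher in R153A, 17 (22.1%) were lower and 39 did not pass. Across all genes tested, 59.8% were called, 37.5% higher and 22.3% lower, so the members' 49.4% called lay below the background, their share of higher calls lay below it too and their share of lower calls was close to it. The groups did not overlap for 39 members (50.6%), beside 65.0% of all genes. The sizes were small: the median absolute log2 fold change was 0.158 among the members and 0.241 among all genes tested. A log2 fold change here is the mean of R153A minus the mean of WT on the log2(FPKM + 1) scale. Only Mrps24 changed by 1 or more on that scale, and only Mrps24 and Mrpl15 by 0.5 or more, beside 981 and 2880 of all genes tested. In bulk RNA such as this, a change in every cell and a change in the share of cells that express a gene cannot be told apart.

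**Figure D1:**
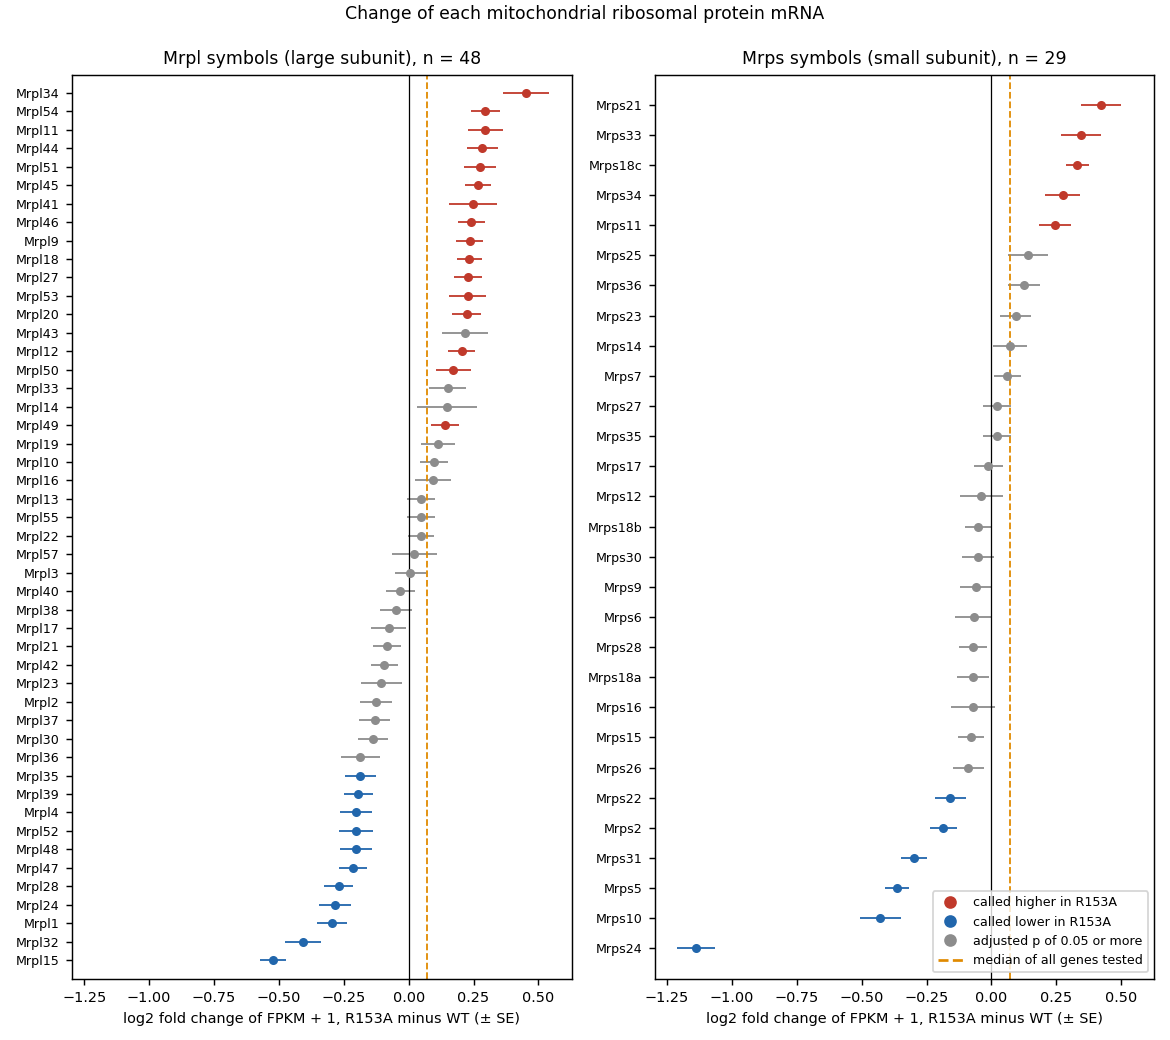
Log2 fold change of FPKM + 1 (x axis, R153A minus WT) of each of the 77 members, with Mrpl symbols on the left and Mrps symbols on the right; points are limma estimates from 3 libraries a group, bars are ± 1 standard error, and the dashed line is the median of all genes tested (0.071). The members lie on both sides of 0, 21 are called higher and 17 lower, and Mrps24 stands apart at -1.14.

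The medians of the 2 subunits lay close to 0. Of the 48 Mrpl members 16 (33.3%) were higher and 11 (22.9%) lower, and of the 29 Mrps members 5 (17.2%) were higher and 6 (20.7%) lower. The median log2 fold change was 0.047 for the Mrpl members, with single members between -0.52 and 0.45, and -0.05 for the Mrps members, between -1.14 and 0.42. The median of all genes tested was 0.071, which is above both, and without WT replicate 3 the median of the Mrps members was 0.02. The Mrps members also moved less, with a median absolute log2 fold change of 0.0888 beside 0.198 for the Mrpl members.

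These directions depend on how the libraries are scaled. With median-ratio scaling 17 members were higher and 32 lower, beside 31.9% and 30.9% of all genes. After rescaling to TPM the members' counts were 18 and 22, beside 35.5% and 24.8%, and with quantile normalization they were again 18 and 22, beside 29.7% and 32.9%. A correction of each library for GC content and length used the longest annotated transcript of each gene. It gave 16 higher and 29 lower members, beside 28.5% and 36.7%. The share of higher calls among the called members was thus 55.3% as deposited and between 34.7% and 45.0% under these 4 scalings. Among all genes called it shifted too, from 62.7% as deposited to 50.7% with median-ratio scaling and 58.9% with TPM. It was 47.4% with quantile normalization and 43.7% after the correction for GC content and length. That correction moved the median of all genes by -0.117, from 0.071 to -0.045, and relative to the median of all genes the members' median was -0.065 as deposited, -0.073 with median-ratio scaling, -0.073 with TPM, -0.012 with quantile normalization and -0.038 after the correction. The median of the Mrpl members was below 0 with median-ratio scaling and after the correction, and -7.63e-05 with quantile normalization. No called member was called in the opposite direction under any of the 17 alternatives tried.

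**Figure D2:**
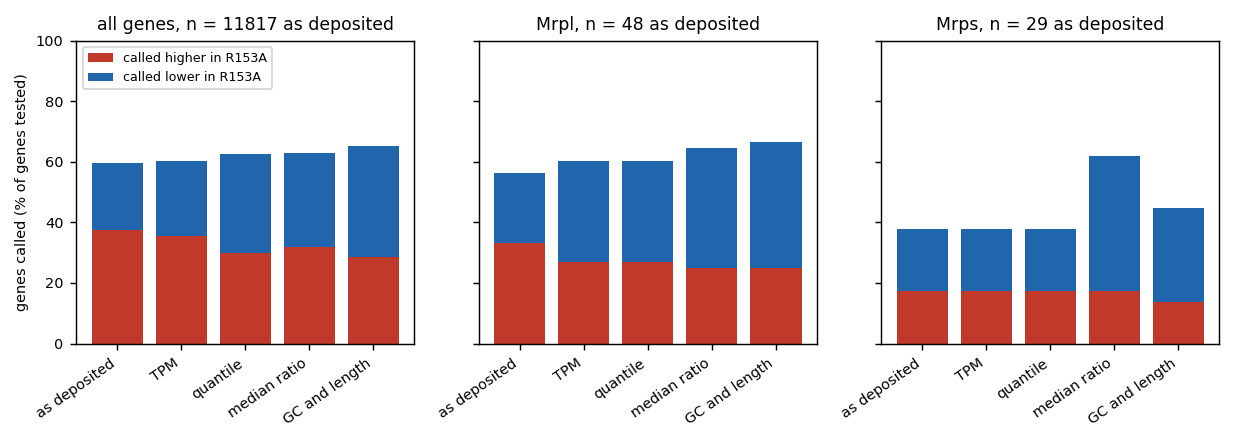
Percent of genes called higher (red) and lower (blue) in R153A (y axis) under 5 scalings (x axis), for all genes tested, the Mrpl members and the Mrps members. Among the Mrpl members the lower share grows from 22.9% as deposited, while the higher share of the Mrps members stays at or under 17.2%.

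Many single calls held under every alternative and others did not. Of the 21 higher members, 14 were called higher under all 17 alternatives: Mrpl9, Mrpl11, Mrpl18, Mrpl20, Mrpl27, Mrpl34, Mrpl44, Mrpl45, Mrpl46, Mrpl51, Mrpl54, Mrps11, Mrps18c and Mrps21. Of the 17 lower members, 10 were called lower under all of them: Mrpl1, Mrpl15, Mrpl24, Mrpl28, Mrpl32, Mrpl47, Mrps5, Mrps10, Mrps24 and Mrps31. The other 14 called members lost the call under at least 1 alternative. The same shares over all genes called are not given here, so these counts have no background beside them. Mrpl49 and Mrpl50 lost it under 11 of the 17, Mrpl41 under 9, Mrps22 under 8, Mrpl52 under 5 and Mrpl53 under 4. Mrpl4 and Mrpl35 lost it under 3, Mrpl48 and Mrps34 under 2, and Mrpl12, Mrpl39, Mrps2 and Mrps33 under 1. Leaving out a single library was enough for 11 of these 14. Without WT replicate 1 Mrpl49, Mrpl50, Mrpl52 and Mrpl53 lost the call (limma adjusted p = 0.0557 to 0.168), without WT replicate 2 Mrpl4, Mrpl41 and Mrps22 did (0.0541 to 0.129), and without WT replicate 3 Mrpl41, Mrpl49, Mrpl52 and Mrps22 did (0.0576 to 0.161). Without R153A replicate 1 Mrpl35, Mrpl39, Mrpl49, Mrpl50, Mrpl52, Mrps2 and Mrps22 lost it (limma adjusted p = 0.0674 to 0.142), without R153A replicate 2 Mrpl4, Mrpl35, Mrpl41, Mrpl50, Mrpl52 and Mrps22 did (0.0585 to 0.0871), and without R153A replicate 3 Mrpl41, Mrpl48, Mrpl49, Mrpl50, Mrpl53 and Mrps22 did (0.0673 to 0.228). Every fit, with all libraries or with one left out, assumes that the groups share 1 spread.

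The largest change of any member was in the small subunit. Mrps24 encodes uS3m, the counterpart of bacterial S3, a protein of the small subunit's head close to where the mRNA enters. It was at 115, 116 and 136 FPKM in the WT libraries and at 53.0, 52.3 and 59.6 FPKM in R153A. Every R153A library was thus far below every WT library, and replicate 3 was the highest of each group. The mean fell 2.22-fold, from 122.2 ± 11.9 to 55.0 ± 4.02 FPKM (SD, n = 3), a log2 fold change of -1.14 (limma SE 0.0729, adjusted p = 1.95e-07). Over all alternatives its log2 fold change was between -1.22 and -1.06. In WT it was the most abundant of the 77 members, and in R153A it was near the level of Mrpl24, Mrpl28 and Mrpl34. The 250 bases before its start are given as the promoter of the member with the largest change, from the RefSeq promoter table (GRCm38.p6, chr11:5707702-5707951, minus strand), 5′ to 3′ and with the match to an SP motif in capitals.
Mrps24: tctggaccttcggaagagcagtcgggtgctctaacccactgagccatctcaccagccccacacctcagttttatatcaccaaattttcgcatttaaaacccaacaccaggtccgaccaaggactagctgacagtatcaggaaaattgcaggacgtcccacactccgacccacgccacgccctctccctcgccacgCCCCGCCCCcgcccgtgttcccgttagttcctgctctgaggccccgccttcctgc

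The other small-subunit members that fell were Mrps10, Mrps5, Mrps31, Mrps2 and Mrps22. Mrps10 (uS10m, a protein of the head of the small subunit) was at 36.3, 38.8 and 42.3 FPKM in WT and 30.1, 25.5 and 31.1 FPKM in R153A, a log2 fold change of -0.43 (limma SE 0.0782, adjusted p = 0.00068). Mrps5 (uS5m), whose bacterial counterpart bears on the accuracy of decoding, was at 56.2, 58.7 and 57.5 FPKM in WT and 46.1, 43.7 and 43.5 FPKM in R153A, a log2 fold change of -0.36 (SE 0.047, adjusted p = 5.27e-05). For both, the lowest WT library was above the highest R153A library. Mrps31 (mS31, specific to mitochondria) was at 23.0, 22.9 and 24.1 FPKM in WT and 18.8 FPKM in all 3 R153A libraries, a log2 fold change of -0.30 (adjusted p = 0.000358). Mrps2 (uS2m) was at 28.7, 29.7 and 30.7 FPKM in WT and 24.9, 25.9 and 27.2 FPKM in R153A, a log2 fold change of -0.18 (adjusted p = 0.0112), with groups that did not overlap. Mrps22 (mS22) had the smallest fall, -0.16, with an adjusted p of 0.0439.

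The 5 small-subunit members that rose were Mrps21, Mrps33, Mrps18c, Mrps34 and Mrps11. Mrps21 (bS21m, with a bacterial counterpart) was at 45.4, 45.4 and 54.8 FPKM in WT and 62.8, 62.4 and 70.3 FPKM in R153A, a 1.34-fold rise (log2 fold change 0.42, limma SE 0.0767, adjusted p = 0.000659). Mrps33 (mS33, specific to mitochondria) was at 20.8, 24.5 and 26.5 FPKM in WT and 29.5, 30.9 and 31.2 FPKM in R153A, a log2 fold change of 0.34 (SE 0.0775, adjusted p = 0.00269). Both had their highest value in replicate 3 of each group, and neither had overlapping groups; without a filter on low values the adjusted p of Mrps33 was 0.0527. Mrps18c, 1 of the 3 mammalian genes related to bacterial S18, was at 39.3, 38.3 and 37.7 FPKM in WT and 47.8, 48.3 and 49.8 FPKM in R153A, a log2 fold change of 0.33 (SE 0.046, adjusted p = 9.13e-05). Mrps34 (mS34) was at 35.9, 43.2 and 41.4 FPKM in WT and 46.5, 48.8 and 50.8 FPKM in R153A, a log2 fold change of 0.27 (adjusted p = 0.00521), which was 0.07 (adjusted p = 0.261) after the correction for GC content and length. Mrps11 (uS11m, a protein of the platform) was at 13.9, 15.1 and 15.3 FPKM in WT and 18.4, 16.7 and 17.9 FPKM in R153A, a log2 fold change of 0.25 (adjusted p = 0.00484). The other 18 Mrps members did not pass, with log2 fold changes between -0.089 (Mrps26) and 0.14 (Mrps25).

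**Figure D3:**
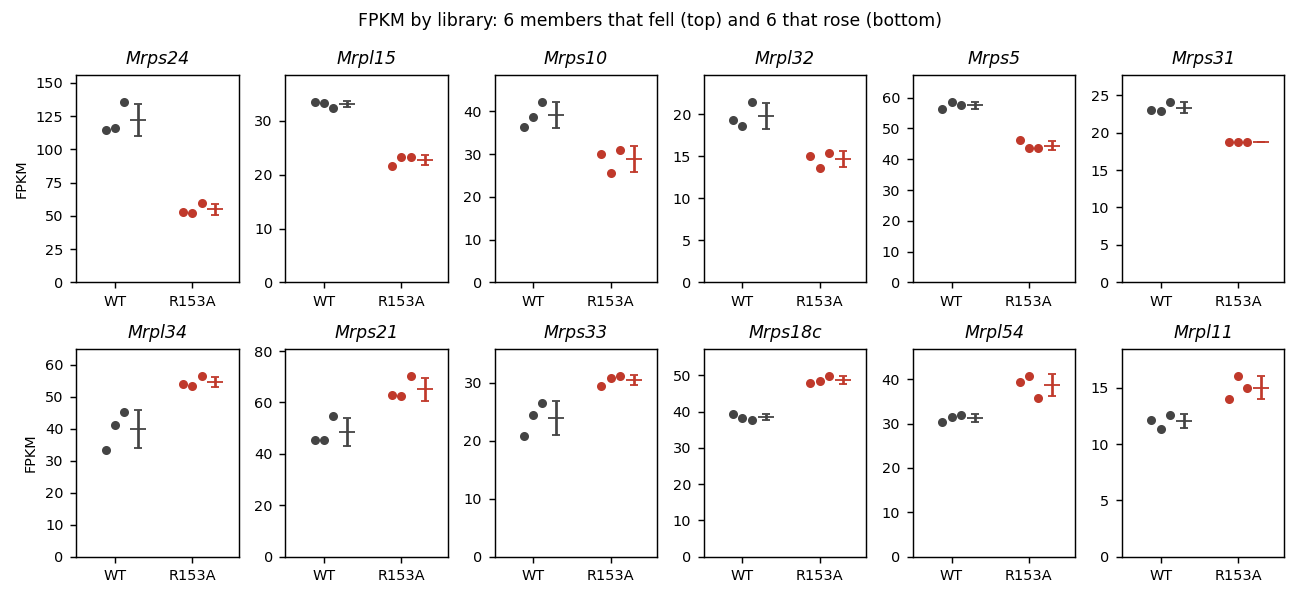
FPKM (y axis, from 0) in each of 3 WT (grey) and 3 R153A (red) libraries for 6 members that fell (top) and 6 that rose (bottom); points are libraries in replicate order, and the bars beside them are the mean ± SD. The groups do not overlap for any of the 12, and only Mrps24 falls by more than 2-fold (122.2 to 55.0 FPKM).

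Large-subunit proteins can be grouped by their place in the ribosome. The groups used here hold some of the proteins of each place and not all of them. The L7/L12 stalk and its base recruit the translation factors, and the 3 genes grouped there had higher means in R153A. However, Mrpl10 was at a log2 fold change of -0.00434 after the correction for GC content and length. Mrpl12 (bL12m), the stalk protein itself, was at 76.9, 81.8 and 73.7 FPKM in WT and 91.9, 85.8 and 90.4 FPKM in R153A, a log2 fold change of 0.20 (limma SE 0.0525, adjusted p = 0.00599), which was 0.09 (adjusted p = 0.187) after the correction for GC content and length. Mrpl11 (uL11m), at the stalk base, was at 12.2, 11.4 and 12.6 FPKM in WT and 14.0, 16.1 and 15.0 FPKM in R153A, a log2 fold change of 0.30 (SE 0.0658, adjusted p = 0.00251). Mrpl10 (uL10m), which anchors the stalk, was at 25.3, 28.1 and 27.5 FPKM in WT and 29.0, 28.1 and 29.6 FPKM in R153A and did not pass (log2 fold change 0.10, adjusted p = 0.149). In none of the 3 did the groups overlap, and for Mrpl10 the nearest values, 28.08 and 28.09 FPKM, were almost the same. Beside these stand 65.0% of all genes tested without overlap, and 6937 of the 11817 with a log2 fold change above 0.

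The central protuberance is where the large subunit contacts the small subunit and the tRNAs. The genes grouped under it, and those for proteins lining the exit tunnel, moved in both directions. Beside them stand 37.5% higher and 22.3% lower of all genes tested, and no difference from that background was tested. Of the 5 genes grouped under the central protuberance, Mrpl18 rose from 51.2 ± 1.92 to 60.3 ± 1.41 FPKM (SD, n = 3) and Mrpl46 from 16.9 ± 0.476 to 20.2 ± 0.471 FPKM. Mrpl48 fell from 26.0 ± 1.67 to 22.5 ± 1.06 FPKM, and Mrpl38 and Mrpl40 had log2 fold changes of -0.049 and -0.032 that did not pass. Mrpl18 overlaps Tcp1 in the annotation. Of the 6 genes grouped under the exit tunnel, Mrpl45, whose product holds the ribosome at the inner membrane, rose from 29.1 ± 1.01 to 35.2 ± 0.43 FPKM (0.27 on the log2 scale, limma adjusted p = 0.000632). Mrpl24 (uL24m), Mrpl47 (uL29m) and Mrpl4 (uL4m) fell, with log2 fold changes of -0.28, -0.21 and -0.20, and Mrpl22 and Mrpl23 did not pass, at 0.047 and -0.10.

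Among all Mrpl members, the largest falls were those of Mrpl15, Mrpl32, Mrpl1, Mrpl24 and Mrpl28, all with bacterial counterparts. Mrpl15 (uL15m, which binds the ribosomal RNA of the large subunit) was at 33.6, 33.3 and 32.4 FPKM in WT and 21.6, 23.2 and 23.4 FPKM in R153A. The gap between the groups was wider than either group's range, and the fall was 1.46-fold (log2 fold change -0.52, limma SE 0.0514, adjusted p = 5.79e-06). Mrpl32 (bL32m), which has to be cut by a protease of the inner membrane before it joins the ribosome, was at 19.3, 18.6 and 21.5 FPKM in WT and 15.1, 13.6 and 15.4 FPKM in R153A, a log2 fold change of -0.41 (SE 0.069, adjusted p = 0.000405). Mrpl1 (uL1m), the protein of the stalk that guides the departing tRNA, was at 11.1, 11.3 and 10.8 FPKM in WT and 8.61, 8.88 and 8.96 FPKM in R153A, a log2 fold change of -0.30 (adjusted p = 0.000995). In these 3 genes every R153A library was below every WT library. Mrpl24 was at 64.2, 68.0 and 71.1 FPKM in WT and 52.5, 53.7 and 60.4 FPKM in R153A (adjusted p = 0.00227), and it overlaps Rrnad1, which was higher in R153A (5.34 ± 0.275 to 7.21 ± 0.316 FPKM). Mrpl28 (bL28m) was at 63.1, 67.2 and 69.6 FPKM in WT and 52.0, 56.6 and 56.7 FPKM in R153A, a log2 fold change of -0.27 (adjusted p = 0.00139). The others that fell, Mrpl4, Mrpl35, Mrpl39, Mrpl47, Mrpl48 and Mrpl52, had log2 fold changes between -0.21 and -0.19.

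The largest rise of any member was that of Mrpl34. It encodes bL34m, a small protein of the large subunit with a bacterial counterpart, and was at 33.5, 41.4 and 45.2 FPKM in WT and 54.1, 53.4 and 56.5 FPKM in R153A. The WT libraries (SD 5.93 FPKM) were more spread than the R153A libraries (SD 1.63 FPKM), and the groups did not overlap (1.37-fold higher, log2 fold change 0.45, limma SE 0.0886, adjusted p = 0.0011). The next 4, Mrpl54, Mrpl11, Mrpl44 and Mrpl51, rose by 0.28 to 0.30. Mrpl54 (mL54) was at 30.4, 31.4 and 32.0 FPKM in WT and 39.4, 40.7 and 35.8 FPKM in R153A (adjusted p = 0.000958). Mrpl44 (mL44), which has a fold related to ribonuclease III, was at 15.6, 17.1 and 16.3 FPKM in WT and 21.0, 20.3 and 19.0 FPKM in R153A (adjusted p = 0.00166). Mrpl51 (mL51) was at 27.9, 30.6 and 31.6 FPKM in WT and 37.4, 34.3 and 38.1 FPKM in R153A (adjusted p = 0.00251). None of these groups overlapped. The remaining higher members, Mrpl9, Mrpl12, Mrpl18, Mrpl20, Mrpl27, Mrpl41, Mrpl45, Mrpl46, Mrpl49, Mrpl50 and Mrpl53, had log2 fold changes of 0.14 to 0.27. Of these, Mrpl41 had overlapping groups (adjusted p = 0.0377).

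The stretches before the starts of Mrpl34, the largest rise, and Mrpl32, a member that fell and whose window held 3 NRF1 matches, are given up to the start of the next gene on the other strand, which is Abhd8 for Mrpl34 and Psma2 for Mrpl32. They are from the RefSeq promoter table (GRCm38.p6, chr8:71464708-71464925, plus strand, and chr13:14613038-14613241, minus strand), and the capitals mark the ETS motif in the former and the NRF1 motif in the latter.
Mrpl34: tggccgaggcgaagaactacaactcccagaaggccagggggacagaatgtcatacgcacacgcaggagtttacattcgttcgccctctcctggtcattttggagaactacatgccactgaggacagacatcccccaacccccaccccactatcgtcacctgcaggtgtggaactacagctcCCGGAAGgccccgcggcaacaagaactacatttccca
Mrpl32: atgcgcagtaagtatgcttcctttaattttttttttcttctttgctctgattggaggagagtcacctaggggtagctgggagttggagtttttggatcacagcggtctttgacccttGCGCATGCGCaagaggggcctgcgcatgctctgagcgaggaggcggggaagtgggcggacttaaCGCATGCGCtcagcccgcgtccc

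Members with and without a bacterial counterpart were found among both the higher and the lower ones. Of the 46 members with a bacterial counterpart 10 were higher and 12 lower, with a median log2 fold change of -0.050, and of the 30 members specific to mitochondria 11 were higher and 5 lower, with a median of 0.022. Mrps18a and Mrps18b, relatives of bacterial S18 that are named as mitochondrial proteins, are counted with the latter. Within the large subunit, 9 of 20 mitochondria-specific members (45.0%) were higher and 3 lower, beside 7 higher and 8 lower of 30 with a bacterial counterpart. In the small subunit the counts were 2 higher and 2 lower of 10, and 3 higher and 4 lower of 16. Beside these stand 37.5% higher and 22.3% lower of all genes, and no difference between the classes was tested. The median absolute log2 fold change was 0.165 for the mitochondria-specific members and 0.168 for the others.

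Some symbols do not match the place of their product. Mrps18a and Mrps30 encode mL66 and mL65, which sit in the large subunit, and Mrps36 encodes Kgd4, a component of the 2-oxoglutarate dehydrogenase complex and not a ribosomal protein. None of these 3 passed the test. Mrps18a was at 26.7, 29.5 and 27.4 FPKM in WT and 24.6, 27.1 and 27.9 FPKM in R153A (log2 fold change -0.07, limma adjusted p = 0.347), and Mrps30 was at 35.2, 40.5 and 38.9 FPKM in WT and 38.9, 35.6 and 36.1 FPKM in R153A (-0.05, adjusted p = 0.503). With median-ratio scaling both were called lower, at adjusted p = 0.0324 and 0.0401, and Mrps18a was also lower after the correction for GC content and length (adjusted p = 0.00748). Mrps36 was at 21.3, 19.2 and 21.6 FPKM in WT and 21.4, 23.3 and 23.3 FPKM in R153A (0.12, adjusted p = 0.103), and 3 pseudogenes carry its name, so its value is uncertain. With the subunits taken from the structure, the medians were 0.034 for 50 large-subunit and -0.044 for 26 small-subunit members. Of the 3 relatives of bacterial S18, Mrps18c rose, while Mrps18a and Mrps18b (49.9 ± 2.39 and 48.2 ± 1.88 FPKM, log2 fold change -0.05) did not pass.

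Levels kept much of their order between the groups. Across the 77 members, the mean log2(FPKM + 1) in WT and in R153A had a Pearson r of 0.957 and a Spearman rho of 0.94, values that share the gene models of both groups and carry no p. The median member was at 28.8 FPKM in WT and 29.7 FPKM in R153A, above the median of all genes tested (8.26 and 8.87 FPKM). After Mrps24, the most abundant in WT was Mrpl52 (mL52), at 107.6, 98.2 and 117.1 FPKM in WT and 89.2, 91.0 and 99.5 FPKM in R153A, and it was called lower (log2 fold change -0.20, limma adjusted p = 0.0227) although its groups overlapped. The median coefficient of variation of a member was 5.5% within WT and 4.46% within R153A. The 4 members whose estimates were nearest to 0 were Mrpl3, Mrps17, Mrps35 and Mrpl57, at 0.0065, -0.012, 0.02 and 0.022. Mrpl3 (uL3m) was at 22.5, 25.6 and 24.0 FPKM in WT and 25.1, 23.7 and 23.6 FPKM in R153A.

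**Figure D4:**
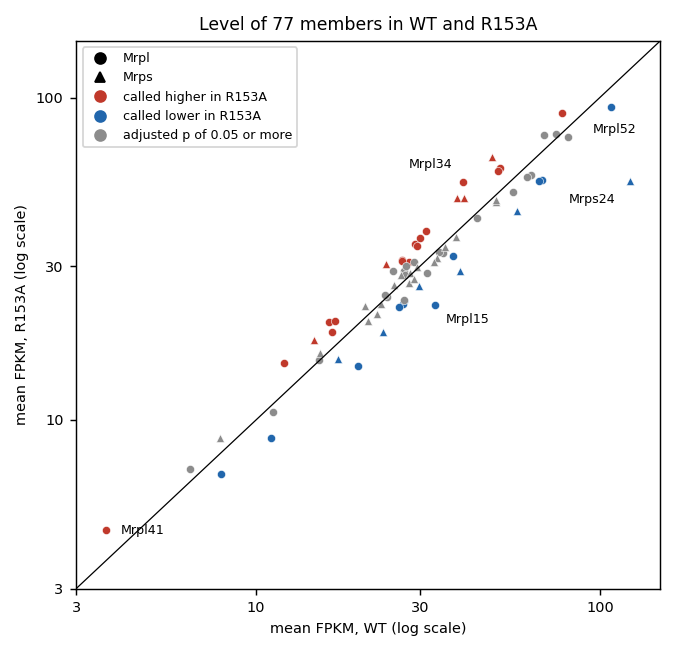
Mean FPKM of each of the 77 members in WT (x axis, log scale) against R153A (y axis, log scale), circles for Mrpl and triangles for Mrps; colours give the call and the line marks equal levels. The members follow the line from Mrpl41 (3.66 and 4.54 FPKM) to Mrpl52 (107.6 and 93.2 FPKM), and Mrps24 lies farthest below it.

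The balance of the 2 subunits was then followed library by library. The median log2(FPKM + 1) of the Mrpl members minus that of the Mrps members was -0.039, -0.0081 and 0.026 in the WT libraries and 0.067, 0.089 and 0.070 in the R153A libraries, so every R153A library was above every WT library, by 0.083 between the means. Between libraries of a group, that difference of medians had an SD of 0.0243, pooled over WT and R153A. The difference between the subunits' median log2 fold changes, which has no value per library, was 0.097. It was between 0.056 and 0.0997 under every alternative. The ratio of summed FPKM, large over small, was 1.78, 1.76 and 1.74 in WT and 1.895, 1.912 and 1.889 in R153A, and the groups did not overlap. Most of that ratio's change came with 1 gene. With Mrps24 left out, a choice made after its values were seen, the ratio was 2.03, 2.00 and 2.00 in WT and 2.01, 2.03 and 2.02 in R153A, groups that overlapped, and the difference of the means was 0.0088 in place of 0.139. The difference between the medians without Mrps24 was 0.092. The summed FPKM of the Mrpl members was 1638, 1701 and 1786 in WT and 1692, 1710 and 1764 in R153A. That of the Mrps members was 921.0, 966.0 and 1027 in WT and 893.1, 894.3 and 933.8 in R153A. Without Mrps24 the Mrps sum was 849.1 ± 42.3 FPKM in WT and 852.1 ± 19.2 FPKM in R153A (SD, n = 3).

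**Figure D5:**
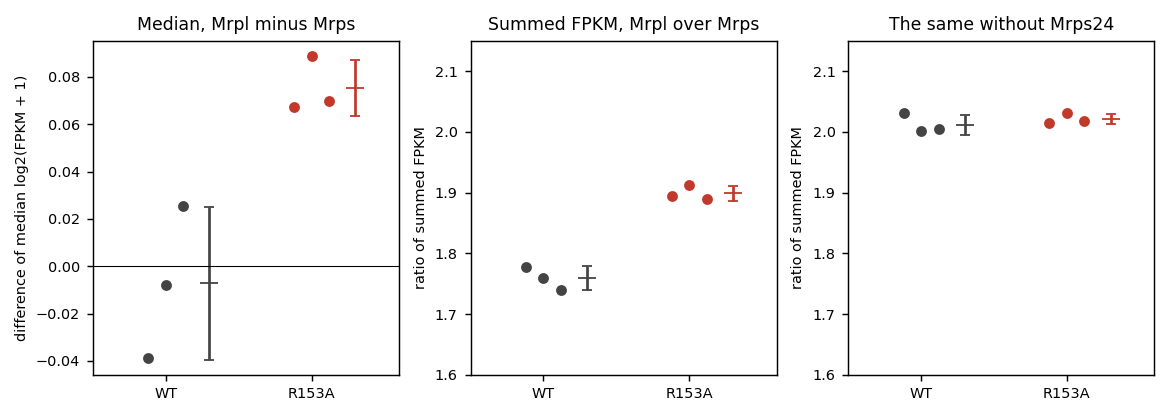
Balance of the large and small subunit in each library (points; bars are mean ± SD of 3 libraries): the difference of the median log2(FPKM + 1) on the left, the ratio of summed FPKM in the middle and the same ratio without Mrps24 on the right, where the y axes of the ratios begin at 1.6. The R153A libraries lie above the WT libraries in the left and middle panels, while the ratios without Mrps24 overlap (2.00 to 2.03).

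WT libraries differed in their overall level of these genes. WT replicate 3 was the highest WT library for 46 of the 77 members and WT replicate 1 the lowest for 51. Both were larger shares than among all genes tested (37.0% and 50.3%). All 77 together made up 0.71%, 0.722% and 0.737% of the summed FPKM in WT and 0.694%, 0.694% and 0.706% in R153A. These shares include Mrps24 and were not computed without it. The part of these library differences in the members' calls was not tested beyond leaving out each library. Across the 77 members, the log2 fold change was higher where the longest annotated transcript was shorter (Spearman rho -0.372 with its log2 length, Pearson r -0.308). It went less with the GC content of that transcript (rho 0.173) or with the level in WT (rho -0.188). These are descriptions over genes that share the same 6 libraries.

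Copies and neighbours bear on some values. Pseudogenes are named after Mrpl23, Mrpl27, Mrpl48, Mrpl51, Mrps33 and Mrps36, whose reads could have been split with them, and their values are uncertain to that extent. In the RefSeq annotation 25 members overlap another gene, 20 of them a protein-coding one, such as Mrpl43 with Twnk (Peo1 in the expression table), Mrpl44 with Wdfy1 and Mrps6 with Slc5a3. No source used here says whether the counting used strand, so reads of such pairs may not have been told apart.

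Many members lie back to back with another gene. By GENCODE M21 gene starts, 18 of the 77 members (23.4%) have a protein-coding gene on the other strand that starts within 1000 bases upstream, beside 10.8% of 10839 tested protein-coding genes. Of the 7 higher members whose partner was tested, the partner was higher for 3, lower for 1 and did not pass for 3. Of all genes tested, 37.5% were higher and 22.3% lower. Mrps34 and Eme2, which start 28 bases apart, both rose, Eme2 from 0.976 to 2.58 FPKM (limma adjusted p = 4.45e-05). Mrpl54 and Apba3, 25 bases apart, moved in opposite directions, Apba3 from 24.0 to 18.9 FPKM (adjusted p = 0.00239). Of the 2 lower members with a tested partner, neither partner passed: Psma2, the partner of Mrpl32, was at 141.0 and 152.6 FPKM (adjusted p = 0.0513), and Zfp661, the partner of Mrps5, at 1.71 and 1.59 FPKM (adjusted p = 0.535).

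A further pair consists of 2 members. Mrpl46 (mL46) and Mrps11 (uS11m) stand back to back and both rose, Mrpl46 from 16.9, 16.5 and 17.4 FPKM in WT to 20.6, 19.7 and 20.3 FPKM in R153A (log2 fold change 0.24, limma adjusted p = 0.00204) and Mrps11 by 0.25 as above. Neither gene's groups overlapped. Their RefSeq starts leave 41 bases between them (GRCm38.p6, chr7:78783090-78783130), while their GENCODE starts overlap, so the pair is not among the 18. Mrpl34 and Abhd8 are not among them either, since their GENCODE starts lie 1303 bases apart and only their RefSeq starts are closer. Abhd8 rose with Mrpl34, from 6.60 ± 0.163 to 8.47 ± 0.251 FPKM (SD, n = 3, log2 fold change 0.32, limma adjusted p = 0.000987). The promoter window of Mrps11 has a YY1 match that begins 108 bases before the start, outside the stretch between the genes. The 41 bases between Mrpl46 and Mrps11, read on the plus strand toward Mrps11, hold none of the 4 motifs searched.
Mrpl46 and Mrps11: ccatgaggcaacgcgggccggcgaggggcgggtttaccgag

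Genes next to the members that changed most were chosen after their values were seen. Lypla1, the neighbour of Mrpl15, was lower in R153A (43.0 ± 0.707 to 23.5 ± 0.979 FPKM, log2 fold change -0.85, limma adjusted p = 1e-07), as were both neighbours of Mrps24, Ccdc117 (24.0 ± 1.16 to 17.2 ± 0.55 FPKM, -0.45) and Urgcp (3.98 ± 0.578 to 2.23 ± 0.285 FPKM, -0.62). Over all called members neighbours moved both ways, beside 37.5% higher and 22.3% lower of all genes tested. Of the 33 tested neighbours of the 17 lower members 10 were higher, 10 lower and 13 did not pass. Of the 42 tested neighbours of the 21 higher members 15 were higher, 7 lower and 20 did not pass.

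Short motifs of 4 kinds of factor known to act on nuclear genes for mitochondrial proteins, or on housekeeping promoters, were searched on both strands in the RefSeq promoter windows (GRCm38.p6), which run from 250 bases before to 50 bases after a start. Of the 77 members 68 had a window. GCGCATGCG (NRF1) was present for 7 of the 68 (10.3%), beside 1.95% of all 27025 genes with a window and 4.49% of the 8762 tested genes with one. CCGGAAG (ETS factors such as GABPA) was present for 25 (36.8%), beside 9.93% and 21.3%. AAGATGGCG (YY1) was present for 8 (11.8%), beside 1.64% and 3.85%, and GGGGCGGGG (SP factors) for 13 (19.1%), beside 12.9% and 26.5%. The first 3 were thus more frequent among the members than among tested genes, and the SP motif less so, with no test made. By call, the ETS motif was present for 8 of 19 higher, 3 of 15 lower and 14 of 34 members that did not pass. In the same order the counts were 1, 2 and 4 for the NRF1 motif, 1, 2 and 5 for YY1 and 0, 4 and 9 for SP. The shown stretch of Mrps24 has the SP motif on the other strand, beginning 55 bases before the start, and a YY1 match begins 37 bases into the transcript. In Mrpl34 the ETS match begins 37 bases before the start, and in Mrpl32 the NRF1 matches begin 87, 86 and 23 bases before it, of which the first 2 overlap. A match describes letters in a window and is not evidence of binding.

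Genes that work with the mitochondrial ribosome moved in both directions as well, beside the same background of 37.5% higher and 22.3% lower. Of 6 mitoribosome proteins with other symbols, Chchd1 (mS37) rose from 61.1 ± 2.59 to 71.5 ± 2.25 FPKM (SD, n = 3), while Dap3 (mS29, the GTP-binding protein of the small subunit) fell from 19.6 ± 0.285 to 14.6 ± 0.417 FPKM and Ict1 (mL62, a peptide release factor built into the large subunit) from 41.5 ± 1.10 to 32.5 ± 1.26 FPKM. The other 3 did not pass. Of 12 translation factors none was higher and 2 were lower: Tsfm, the exchange factor of the elongation factor Tufm, from 28.6 ± 2.51 to 22.0 ± 0.773 FPKM (log2 fold change -0.36, limma adjusted p = 0.000642), and Mtrf1, a release factor, at an adjusted p of 0.0498. Tufm itself was at 50.3 ± 1.14 and 50.8 ± 1.42 FPKM.

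Of 22 assembly factors 6 were higher and 5 lower. The 2 largest changes were falls, in Mpv17l2, a membrane protein needed for assembly of the mitochondrial ribosome, from 17.9 ± 2.51 to 10.01 ± 2.04 FPKM (log2 fold change -0.79, limma SE 0.125, adjusted p = 0.000244), and in Rbfa, which acts on the small-subunit RNA, from 33.1 ± 1.63 to 21.6 ± 1.57 FPKM (-0.59, SE 0.0624, adjusted p = 1.02e-05). A list of 11 genes covered the transcription and stability of mitochondrial RNA and, with Peo1, Polg, Polg2 and Ssbp1, the replication of mitochondrial DNA. Of these 11, Slirp and Peo1, the gene of the Twinkle helicase, were higher, Polrmt was lower and 8 did not pass. Of 26 import genes 7 were higher and 6 lower, with the largest changes in Timm21 (7.40 ± 0.31 to 12.4 ± 0.661 FPKM, 0.68) and Timm10 (31.5 ± 1.23 to 21.0 ± 1.01 FPKM, -0.56).

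Regulators of nuclear genes for mitochondria also moved in both directions: of 12 tested, 2 were higher and 4 lower. Myc was at 3.08, 3.22 and 2.62 FPKM in WT and 5.32, 4.26 and 5.59 FPKM in R153A (log2 fold change 0.61, limma adjusted p = 0.000306), and its paralogue Mycn, at far higher levels, fell from 59.4 ± 1.01 to 41.3 ± 3.55 FPKM (-0.52, adjusted p = 2.85e-05). Gabpa, the ETS factor named above, fell from 25.3 ± 0.068 to 18.5 ± 0.324 FPKM and Pprc1, a coactivator of NRF1, from 38.5 ± 3.29 to 28.9 ± 1.67 FPKM, and Max fell by 0.15. Yy1 rose from 38.6 ± 2.152 to 47.2 ± 1.70 FPKM. Nrf1 did not pass, at 9.99 ± 0.037 and 9.74 ± 0.945 FPKM (log2 fold change -0.036). Any part of these factors in the members' changes was not tested.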

How the data were processed

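Polyadenylated RNA of 6 mouse embryonic stem cell libraries was compared, 3 WT and 3 R153A. The values are FPKM, which the authors deposited as 1 table of gene symbols by libraries, per the file headers. The submitters' processing notes name edgeR 3.26.8, HTSeq 0.11.2, Bowtie2 2.3.4.3, SAMtools 1.9 and mm9 without their roles. The tool behind the FPKM, the annotation, strand use and filters were not given in the sources used here. Read counts could not be recovered from the values, so depth is unknown and neither count tests nor counting intervals were made.

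The values were used as deposited, as log2(FPKM + 1). The pseudocount of 1 understates the change of low genes. Genes with 1 FPKM or more in at least 3 libraries were fitted with limma 3.58.1 in R 4.3.3 (mean-variance trend, 2-sided, Benjamini-Hochberg adjustment over 11817 genes, called under 0.05). Fitting was tested on simulated data. Medians over members carry no test. Python 3.11.15 and matplotlib 3.10.9 served for summaries and figures.

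The members and lists were chosen with earlier results of these data known. Named with full values were, per subunit by symbol, the 5 largest rises and falls among called members without overlap, the 2 most abundant and the 2 with the smallest change, the member nearest to the filter, and Mrps18a, Mrps30 and Mrps36. Of each related list, up to 2 called genes with the largest change were named. Other genes are named to complete a count or a group by ribosome region, or were picked after seeing their values.

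Alternatives tried were no filter or one of 5 FPKM, a pseudocount of 0.1 or 0.5, scaling by median ratios, to TPM or by quantiles, a fit with no trend, with robust moderation or with the replicate number as block, each library left out, and a loess correction (span 0.5) for GC content and transcript length. Both properties were those of the longest GENCODE M21 transcript of a symbol, which need not be the transcript these cells express. They were matched by symbol for 11757 of 11817 genes (99.5%) and all 77 members. The RefSeq table (GRCm38.p6) held all 77 members and promoter windows for 68 of them. Its build is not that of the expression table, so only the shown windows have coordinates. Protein sequences were not used here.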

Additional observations from a re-analysis of the deposited data

How the results depend on the processing

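All 77 members had a value under every alternative except the filter of 5 FPKM, which left out Mrpl41. The difference of the subunit medians (0.0972 as deposited) kept its sign under all alternatives and lay between 0.0562 and 0.0916 when each library was left out. The median of the Mrps members ranged from -0.0684 to 0.0198 in those fits. With median-ratio scaling 32 members were lower, 19 Mrpl and 13 Mrps, and the medians were -0.0346 and -0.132. After the GC and length correction 29 members were lower, 20 of them Mrpl, the medians were -0.0299 and -0.119, and 4314 of all genes were lower in place of 2634. Without a filter on low values 3 Mrps members were higher in place of 5, and with a filter of 5 FPKM 2901 of the genes tested were higher in place of 4428, from fewer genes. For the other changes the cause was not tested.

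The signs of the members nearest to 0 were not stable. Mrpl3 was at -0.0744 with median-ratio scaling, -0.0174 with TPM, -0.0139 with quantile normalization and -0.083 after the correction, Mrpl57 at -0.0572, -0.000875, -0.0418 and -0.0442, and Mrps35 at -0.0616, -0.00382, -0.0265 and -0.0767. With each library left out Mrpl3 ranged from -0.0375 to 0.0512, Mrpl57 from -0.0849 to 0.105, Mrps17 from -0.0429 to 0.0198 and Mrps35 from -0.00246 to 0.0554. Mrpl10 was at -0.00434 after the correction and Mrpl22 at -0.0341 with median-ratio scaling. With each library left out Mrpl23 ranged from -0.178 to 0.00117, Mrpl38 from -0.116 to 0.00703 and Mrpl40 from -0.0854 to 0.00111.

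Over all genes tested, the deviations of same-numbered libraries of the groups had correlations of -0.0487, -0.00946 and 0.06. The labels do not say whether the numbers pair the libraries, and correlations over all genes cannot decide it. Among the 77 members, replicate 3 was the highest library for 46 in WT and 41 in R153A. Both were larger shares than among all genes tested (37.0% and 45.7%). With the replicate number as a block 21 members were higher and 16 lower, of which 19 and 15 were called so without it, and 6876 genes were called in place of 7062. The unknown read depth, 3 libraries a group and the unknown origin of the libraries limit all of these values.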
